A study of Drosophila melanogaster with 6 samples.

Results

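The genes bsk, hep, msn, slpr, puc, kay, Jra, Pvr, egr and grnd of the c-Jun N-terminal kinase (JNK) pathway were followed in Drosophila leg discs across the onset of metamorphosis. They were chosen by name, as the core cascade with its ligand and receptors, and are 10 of the 15173 genes to which counts could be matched. Transcripts were measured by polyA RNA-seq in leg discs at 2h APF (2 hours after pupal formation) and in leg discs of wandering larvae of the last instar (wL3), with 3 libraries per stage. All discs came from flies of the genotype white [1118], the wL3 larvae were taken before spiracle eversion and so before the ecdysone peak that opens metamorphosis, and the labels name no treatment at either stage. The labels do not say whether the 3 libraries of a stage came from separate dissections, so p-values measure the spread between these libraries, which may be technical.

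In this cascade a membrane signal reaches a MAP kinase kinase kinase and then, through Hemipterous and the JNK Basket, the AP-1 transcription factor made of Fos and Jun. Puckered, a phosphatase whose gene is itself switched on by the pathway, removes the activating phosphates from Basket. At metamorphosis discs turn inside out and their edges fuse, and in flies JNK signalling is known for its part in disc eversion and thorax closure, as well as in dorsal closure of the embryo. Activation of the cascade is by phosphorylation, which RNA-seq does not measure.

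Of the 10 genes, 6 were higher and 1 was lower at 2h APF, and 3 did not pass the test. The receptor gene Pvr had the largest change of the 10, 4.08 times its wL3 level, followed by the ligand gene egr and the phosphatase gene puc, whereas the kinase genes hep and slpr and the receptor gene grnd were at close to the same level at both stages. Levels per gene are given as CPM, the count of a gene relative to the library's total, scaled by the trimmed mean of M-values (TMM), and calls rest on an adjusted p-value below 0.05 in edgeR's quasi-likelihood test over all genes. All 10 genes passed the filter on low counts. The 7 calls have to be read against 67.5% of all 8935 genes tested that were called in either direction, 30.6% higher and 36.9% lower at 2h APF. These were 2734 higher and 3297 lower genes, or 2218 higher and 4107 lower when libraries were scaled by total count alone. Beyond 1 log2 unit there were 2 of the 10, Pvr and egr, against 18.6% of all genes (9.74% higher and 8.89% lower). The stages did not overlap for 7 of the 10, and for 73.4% of all genes. The median log2 fold change was 0.23 over the 10 genes and -0.04 over all genes tested, and the median of its size was 0.23 over the 10 and 0.39 over all. The share called was thus near that of the whole transcriptome and the typical size of change below it. By direction 6 of the 10 were higher, against 30.6% of all genes, and 1 was lower, against 36.9%. This lean in 10 genes chosen by name was not tested, and the largest changes were those of single genes.

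**Figure D1:**
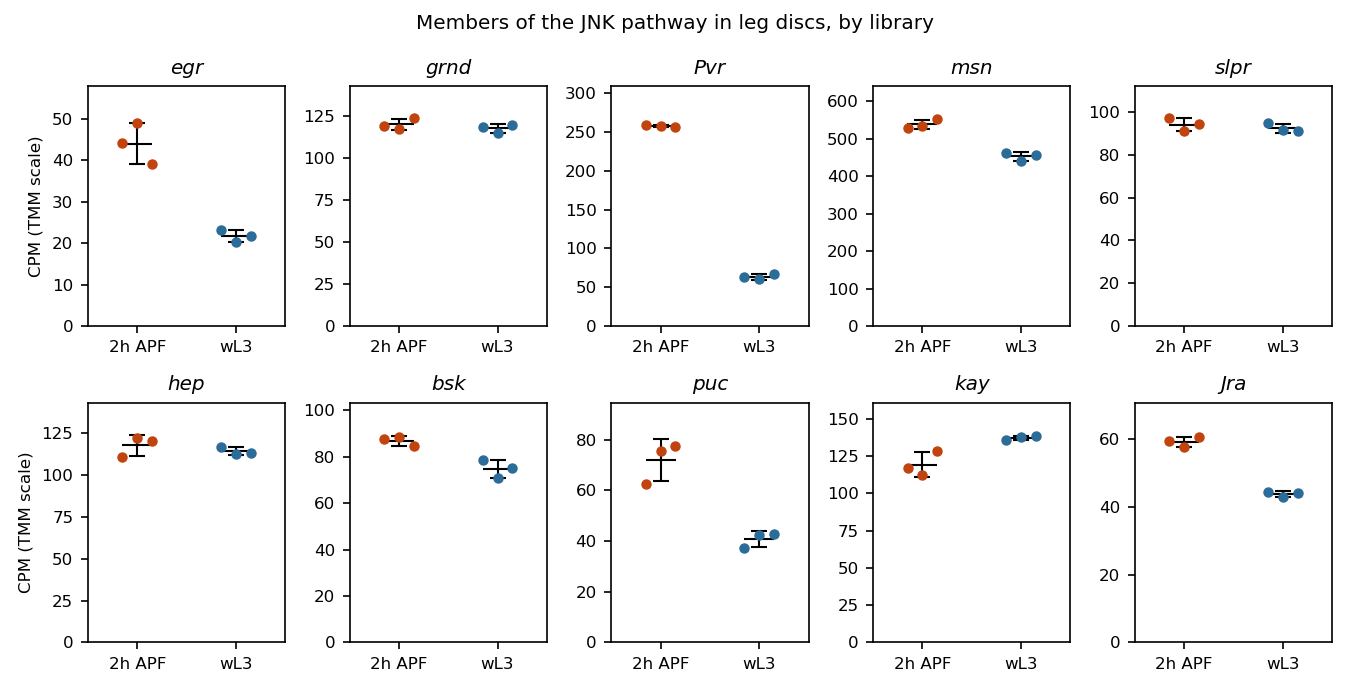
Level of each of the 10 JNK pathway genes in CPM on the TMM scale (linear axes from 0), with 1 point per library at 2h APF and at wL3. Bars give the mean and SD of the 3 libraries of a stage. Pvr, egr and puc lie apart from their wL3 values with the widest gaps, and grnd, slpr and hep overlap between the stages.

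The libraries held between 24395318 and 30880112 estimated counts at 2h APF and between 27514509 and 33373176 at wL3. The 13 leg disc markers summed to between 3161 and 3333 CPM at 2h APF and between 3173 and 3276 CPM at wL3, so the labelled tissue was present at both stages, although the extraction label speaks of embryos. These near-equal sums hide changes in both directions. Of the 13, 3 were higher and 4 lower at 2h APF, where 67.5% of all genes were called. The log2 fold changes ran from -0.61 for bab2 to 0.94 for wg. Markers of other tissues differed as well. The 9 hemocyte markers were all lower at 2h APF and summed to between 59.5 and 79.6 CPM, against between 359 and 693 CPM at wL3. Salivary glue transcripts, 5 of 6 with counts, summed to between 0.176 and 0.272 CPM at 2h APF and to between 51.0 and 195 CPM at wL3, and none of these 5 had more than 3 counts in a 2h APF library. The 6 fat body markers varied between libraries of a stage, with 195 to 876 CPM at 2h APF and 35.4 to 3719 CPM at wL3. The 6 muscle markers summed to between 39.5 and 41.4 CPM at 2h APF, with Tm2 at 0, and to between 49.1 and 236 CPM at wL3. Most of the 2h APF sum was Act57B (36.1, 34.3 and 35.4 CPM), which did not pass the test, while the other 4 tested were lower. The 4 myoblast markers were all higher at 2h APF (196 to 213 CPM, against 134 to 137 CPM at wL3), as was the sum of the 4 tracheal markers (599 to 625 CPM, against 419 to 428 CPM), of which 2 passed the test. The 5 markers of wing and eye discs, none at 0 in all libraries of 2h APF, summed to between 28.2 and 32.6 CPM at 2h APF and between 11.9 and 16.2 CPM at wL3. The rise of this sum came from vg and eya, both higher, while ey, toy and gl were too low to be tested. The leg disc marker Ubx, a Hox gene of the hind thorax, stood at 142 CPM in 2h APF replicate 2, against 43.3 and 36.4 CPM in the other 2h APF libraries and 25.8 to 47.3 CPM at wL3. In bulk tissue, fewer cells of a type and less RNA per cell cannot be told apart.

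The gene egr (Eiger, the tumour necrosis factor of the fly) lies on chromosome 2R at 10078366 to 10084210 on the plus strand (positions here are those of the BDGP6.54 annotation). It had 44.1, 49.0 and 39.1 CPM at 2h APF, against 23.1, 20.2 and 21.8 CPM at wL3. Every 2h APF library was above every wL3 library. The level was 2.03 times that at wL3, a log2 fold change of 1.02 (SE 0.0908, adjusted p = 6.18e-05). Its 2 transcripts rose together: egr-RA had a log2 fold change of 1.01 (adjusted p = 0.00343) and egr-RB one of 0.94 (adjusted p = 0.0125), and egr-RA held 78.6, 84.4 and 70.7% of the TPM (abundance per transcript length) of egr at 2h APF and 79.6, 78.8 and 74.3% at wL3.

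The gene grnd (Grindelwald, a tumour necrosis factor receptor that binds Eiger) lies on chromosome 2L at 18485417 to 18488021 on the plus strand. Its level was 119, 117 and 124 CPM at 2h APF, against 119, 115 and 119 CPM at wL3. The stages overlapped, and the log2 fold change of 0.03 (SE 0.0348, adjusted p = 0.472) did not pass the test. Exons of grnd share 275 bases with those of kon on the opposite strand. The libraries were strand specific, but whether the assignment of reads used the strand is not given in the sources used here. Under the level of the gene its 2 transcripts, which have the same coding sequence of 241 codons, divided differently. The transcript grnd-RC held 75.2, 75.9 and 79.4% of the TPM of grnd at 2h APF, against 84.5, 96.4 and 89.0% at wL3, and its own level fell (log2 fold change -0.19, adjusted p = 0.0282). This call was lost without any 1 of 4 libraries, 2h APF replicates 1 and 2 and wL3 replicates 2 and 3 (adjusted p up to 0.10). The other, grnd-RB, had a log2 fold change of 1.22 that did not pass the test (SE 0.503, adjusted p = 0.102), with wL3 replicate 2 at 2.58 TPM, far under the other libraries, and without that library it passed (adjusted p = 0.0265). The ratio of grnd to egr in TPM, a unit per transcript length in which genes can be compared, was 2.89, 2.56 and 3.36 at 2h APF and 5.40, 5.84 and 5.72 at wL3.

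The gene Pvr encodes a receptor tyrosine kinase related to the receptors of platelet-derived and vascular endothelial growth factors, which acts upstream of JNK in thorax closure. It lies on chromosome 2L at 8220980 to 8239878 on the minus strand. At 2h APF it had 259, 258 and 257 CPM, against 62.9, 59.9 and 66.9 CPM at wL3. The 3 libraries of 2h APF were almost equal and all far above wL3. The log2 fold change was 2.03 (SE 0.0449, adjusted p = 1.33e-06). Pvr also marks hemocytes, whose 9 markers moved the other way: Hml, a hemocyte gene of the clotting system, had 0.305, 0.388 and 0.211 CPM at 2h APF and 47.0, 93.4 and 74.8 CPM at wL3. Summed markers of wing and eye discs, of myoblasts and of trachea moved in the same direction as Pvr, at 2.30, 1.52 and 1.45 times their wL3 sums. In the wing and eye sum only vg and eya were tested, and in the tracheal sum serp and btl were higher while trh and verm did not pass the test. The part of these tissues and of hemocytes in the change of Pvr was not tested.

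**Figure D2:**
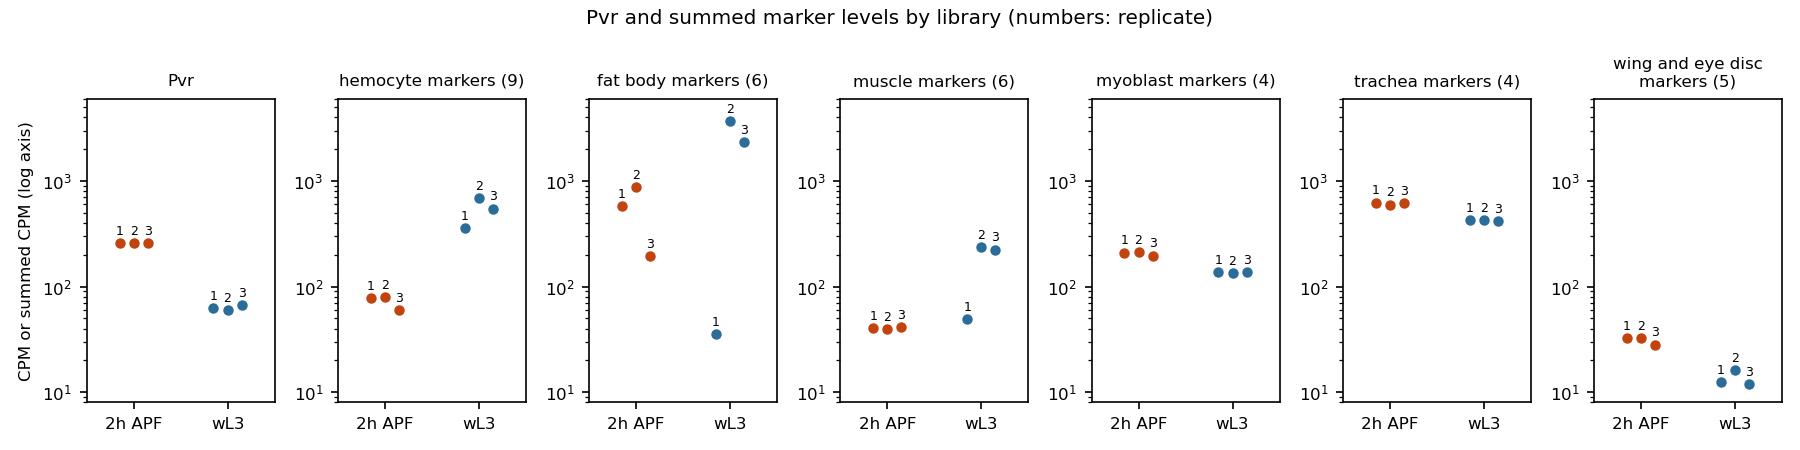
Level of Pvr beside summed marker levels of hemocytes, fat body, muscle, myoblasts, trachea and other discs in CPM on the TMM scale (log axis), with 1 point per library. Pvr is near 258 CPM in each 2h APF library and near 63.2 CPM in each wL3 library, while the hemocyte markers lie between 59.5 and 79.6 CPM at 2h APF and between 359 and 693 CPM at wL3.

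The 13 annotated transcripts of Pvr all had a target, and 4 of them reached 10% of its TPM in a library. The transcript Pvr-RG, with 1468 codons, held 50.8, 56.8 and 53.8% at 2h APF, against 38.4, 39.9 and 31.4% at wL3, and its level rose by a log2 fold change of 2.57 (SE 0.0732, adjusted p = 2.94e-05). Pvr-RB, whose coding sequence has 41 codons more, rose as well (log2 fold change 1.91, SE 0.19, adjusted p = 0.000541) and its share overlapped between the stages. The level of Pvr-RA did not pass the test (0.31, SE 0.389, adjusted p = 0.573), and it held 5.74, 3.65 and 2.55% at 2h APF, against 8.79, 12.4 and 17.1% at wL3. A pair of long transcripts traded places. Pvr-RJ was at 3.19, 3.27 and 2.55 TPM at 2h APF and at 0 counts in each wL3 library, at least 137-fold higher against a floor of 3 counts per library. Pvr-RM was at 0 counts in each 2h APF library, against 0.884, 1.64 and 1.71 TPM at wL3, at least 52.3-fold lower by the same floor. These transcripts have 1568 codons in common and Pvr-RJ has 9 more, and the division of reads between such near-identical targets is an estimate whose error was not in the files.

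Among the kinases, msn and bsk rose slightly, and slpr and hep did not pass the test. The gene msn (Misshapen, a Ste20-family kinase near the top of the cascade, chromosome 3L, 2554847 to 2586540, minus strand) had 530, 533 and 552 CPM at 2h APF, against 462, 440 and 458 CPM at wL3. The stages did not overlap, and the log2 fold change was 0.25 (SE 0.0325, adjusted p = 0.00043). The rise was uneven over its transcripts. The transcript msn-RB, with 1200 codons, held 27.9, 32.7 and 32.9% of the TPM of msn at 2h APF, against 21.1, 24.8 and 23.2% at wL3, and rose (log2 fold change 0.66, adjusted p = 0.00168). The most abundant transcript, msn-RD with 1102 codons, held 53.4, 50.1 and 49.8% at 2h APF, against 58.7, 56.2 and 56.4% at wL3, and its level did not pass the test (0.06, adjusted p = 0.323). Nor did that of msn-RA (-0.16, adjusted p = 0.269).

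The gene slpr (Slipper, a mixed-lineage MAP kinase kinase kinase, chromosome X, 8170229 to 8177185, minus strand) had 97.0, 90.9 and 94.3 CPM at 2h APF, against 94.7, 91.6 and 90.9 CPM at wL3. The stages overlapped (log2 fold change 0.03, SE 0.0372, adjusted p = 0.557), and none of its 4 transcripts was called, although slpr-RB was without wL3 replicate 3 (adjusted p = 0.00615) and slpr-RD without wL3 replicate 2 (adjusted p = 0.0147). Exons of slpr share 38 bases with CG2278 on the same strand. The gene hep (Hemipterous, the MAP kinase kinase that phosphorylates Basket, chromosome X, 13079205 to 13090434, minus strand) had 111, 122 and 120 CPM at 2h APF, against 117, 113 and 113 CPM at wL3. These values overlapped too (log2 fold change 0.04, SE 0.0451, adjusted p = 0.419). Of the 7 annotated transcripts of hep, 4 had a target. The short form hep-RC, with 492 codons, held 26.1, 26.6 and 22.5% of the TPM at 2h APF, against 18.7, 18.5 and 19.9% at wL3, and rose (log2 fold change 0.44, adjusted p = 0.0159, but 0.0514 without wL3 replicate 2). A second transcript, hep-RE, fell (-0.53, adjusted p = 0.0454), a call that was lost without any single library (adjusted p of 0.0522 to 0.145). The hep-RE target to which reads were assigned was 3207 bases long, against 5689 in the annotation used here. Together hep-RC and hep-RE held 31.7, 31.8 and 29.1% at 2h APF and 26.8, 26.9 and 29.5% at wL3, which overlapped (exact two-sided permutation test, p = 0.2). The long forms hep-RA, with 1178 codons, and hep-RD, with 1162, did not pass the test.

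The gene bsk (Basket, the JNK itself, chromosome 2L, 10247502 to 10250501, minus strand) had 87.6, 88.6 and 84.5 CPM at 2h APF, against 78.5, 70.9 and 75.1 CPM at wL3. The stages were apart by a small margin, with a log2 fold change of 0.22 (SE 0.0456, adjusted p = 0.00462). This call was lost when libraries were scaled by their total count alone, where the log2 fold change was 0.10 (adjusted p = 0.0717). Over all 15 alternatives the adjusted p of bsk was 1e-04 to 0.0717. Nearly all of the signal was bsk-RB, with 93.9 to 97.1% of the TPM at 2h APF and 94.7 to 96.5% at wL3.

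The gene puc (Puckered, chromosome 3R, 8105332 to 8122294, plus strand) had 62.4, 75.6 and 77.6 CPM at 2h APF, against 37.3, 42.5 and 42.7 CPM at wL3. In both stages replicate 1 was the lowest, and all 2h APF libraries were above all wL3 libraries. The level was 1.76 times that at wL3 (log2 fold change 0.82, SE 0.0943, adjusted p = 0.000231). Of its 2 annotated transcripts, 1 had a target, puc-RA, and the other was not analysed here. Set against the kinase it acts on, the ratio of puc to bsk in TPM was 0.345, 0.417 and 0.449 at 2h APF and 0.232, 0.292 and 0.276 at wL3, without overlap. In a search of 7299 genes averaging 100 counts or more, those whose log2 CPM, centred per gene, lay closest to puc over the 6 libraries were CG1907, TP53INP and Nlg1. Their root mean square differences from puc were 0.0662, 0.0676 and 0.0736 log2 units and their log2 fold changes 0.81, 0.78 and 0.84. Fold changes near that of puc follow from the way these genes were picked, and shared regulation was not tested. TP53INP is the fly relative of mammalian p53-inducible nuclear proteins, and Nlg1 encodes a neuroligin, a synaptic adhesion protein.

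The AP-1 subunits moved in opposite directions. The gene kay (Kayak, the Fos subunit, chromosome 3R, 29765995 to 29794113, plus strand) had 117, 112 and 128 CPM at 2h APF, against 136, 138 and 138 CPM at wL3. It fell by a small amount without overlap (log2 fold change -0.20, SE 0.0512, adjusted p = 0.0103). The gene Jra (the Jun subunit, chromosome 2R, 10096480 to 10098556, plus strand) had 59.3, 57.7 and 60.6 CPM at 2h APF, against 44.5, 42.9 and 44.0 CPM at wL3. It rose without overlap (log2 fold change 0.43, SE 0.0346, adjusted p = 3.6e-05). Exons of Jra share 39 bases with RpLP0-like on the opposite strand. The ratio of kay to Jra in TPM was 0.806, 0.795 and 0.877 at 2h APF and 1.25, 1.30 and 1.28 at wL3, so that Jra transcripts outnumbered those of kay at 2h APF and kay outnumbered Jra at wL3. For each of the 3 ratios given here, of grnd to egr, puc to bsk and kay to Jra, the exact two-sided permutation test gave p = 0.1, the smallest that 3 libraries against 3 allow. The ratios restate the changes of the single genes given above, so these p-values add no separate support.

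The kay gene is read from several first exons, 4 of its 5 annotated transcripts having a target. From the annotated start of kay-RD, the starts of kay-RA, kay-RB and kay-RF lie 6897, 16614 and 22941 bases downstream. The kay-RD target to which reads were assigned was 3471 bases long, against 4248 in the annotation, so its start may differ. These 4 transcripts share 521 codons, with 74 of its own in kay-RA, 25 in kay-RB, 201 in kay-RD and 234 in kay-RF. The main form, kay-RB, held 60.5, 57.5 and 66.0% of the TPM of kay at 2h APF, against 61.1, 61.2 and 62.6% at wL3, and kay-RA held 35.6, 38.4 and 28.3% at 2h APF, against 31.5, 30.0 and 29.6% at wL3. Both overlapped between the stages and neither level passed the test, although kay-RB did without 2h APF replicate 3 (-0.34, adjusted p = 0.0115). The rare form kay-RF was at 0.261, 0.344 and 0.381 TPM at 2h APF, against 0.979, 1.98 and 1.69 TPM at wL3. It fell (log2 fold change -2.27, SE 0.348, adjusted p = 0.00319) without overlap. For Jra, the targets Jra-RA and Jra-RC held the same values in every library, so they could not be told apart.

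**Figure D3:**
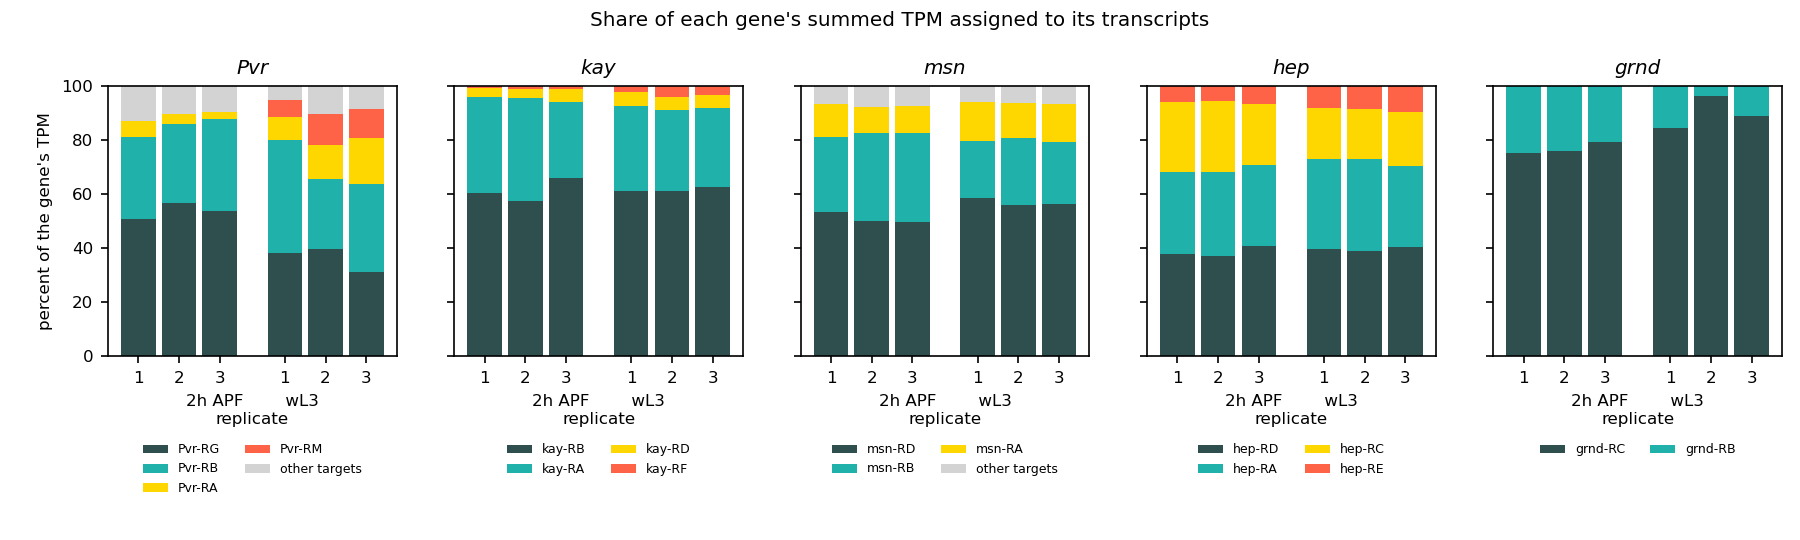
Share of each gene's TPM, in percent, given to each of its transcripts for Pvr, kay, msn, hep and grnd, as stacked bars with 1 bar per library, 2h APF left and wL3 right. The share of Pvr-RG is 50.8 to 56.8% at 2h APF and 31.4 to 39.9% at wL3, while the 2 main kay transcripts overlap between the stages.

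Over the 44 targets of the 10 genes, 36 were tested after counting the Jra pair once, and 15 were called, 11 higher and 4 lower at 2h APF. In the same fit 42.6% of 17601 targets were called, 20.3% higher and 22.3% lower. Of 20 shares tested among the transcripts with at least 10% of a gene's TPM, 10 did not overlap between the stages. Shares over all genes were not computed, so this count has nothing to be read against. The shares of a gene also depend on each other, those of grnd-RC and grnd-RB being mirror images of the same change. Each of these had p = 0.1 by the exact two-sided permutation test, or 0.2 after Benjamini-Hochberg adjustment over the 20, so no change of share passed a test in this design.

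On the per-length scale the order of the levels changed mostly through Pvr. At 2h APF msn was highest with 121 ± 2.70 TPM (SD, n = 3), followed by grnd with 78.4 ± 2.17 and bsk with 77.5 ± 2.23 TPM, whose values overlapped. Pvr came next with 60.2 ± 0.679, then Jra with 54.1 ± 1.61 and kay with 44.7 ± 3.44 TPM. The lower end was formed by hep with 32.8 ± 1.38, puc with 31.2 ± 3.37, egr with 27.0 ± 2.94 and slpr with 22.4 ± 0.931 TPM, where hep overlapped puc and puc overlapped egr. At wL3 the order ran from msn with 101 ± 2.27, grnd with 75.1 ± 2.20 and bsk with 66.9 ± 3.02 TPM to kay with 51.1 ± 0.875 and Jra with 40.1 ± 0.613 TPM. Below these came hep with 31.1 ± 0.380, slpr with 21.9 ± 0.253, puc with 17.8 ± 1.49, Pvr with 14.7 ± 0.871 and egr with 13.3 ± 0.796 TPM, and only Pvr and egr overlapped as neighbours. Pvr thus had rank 4 of the 10 at 2h APF and rank 9 at wL3.

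**Figure D4:**
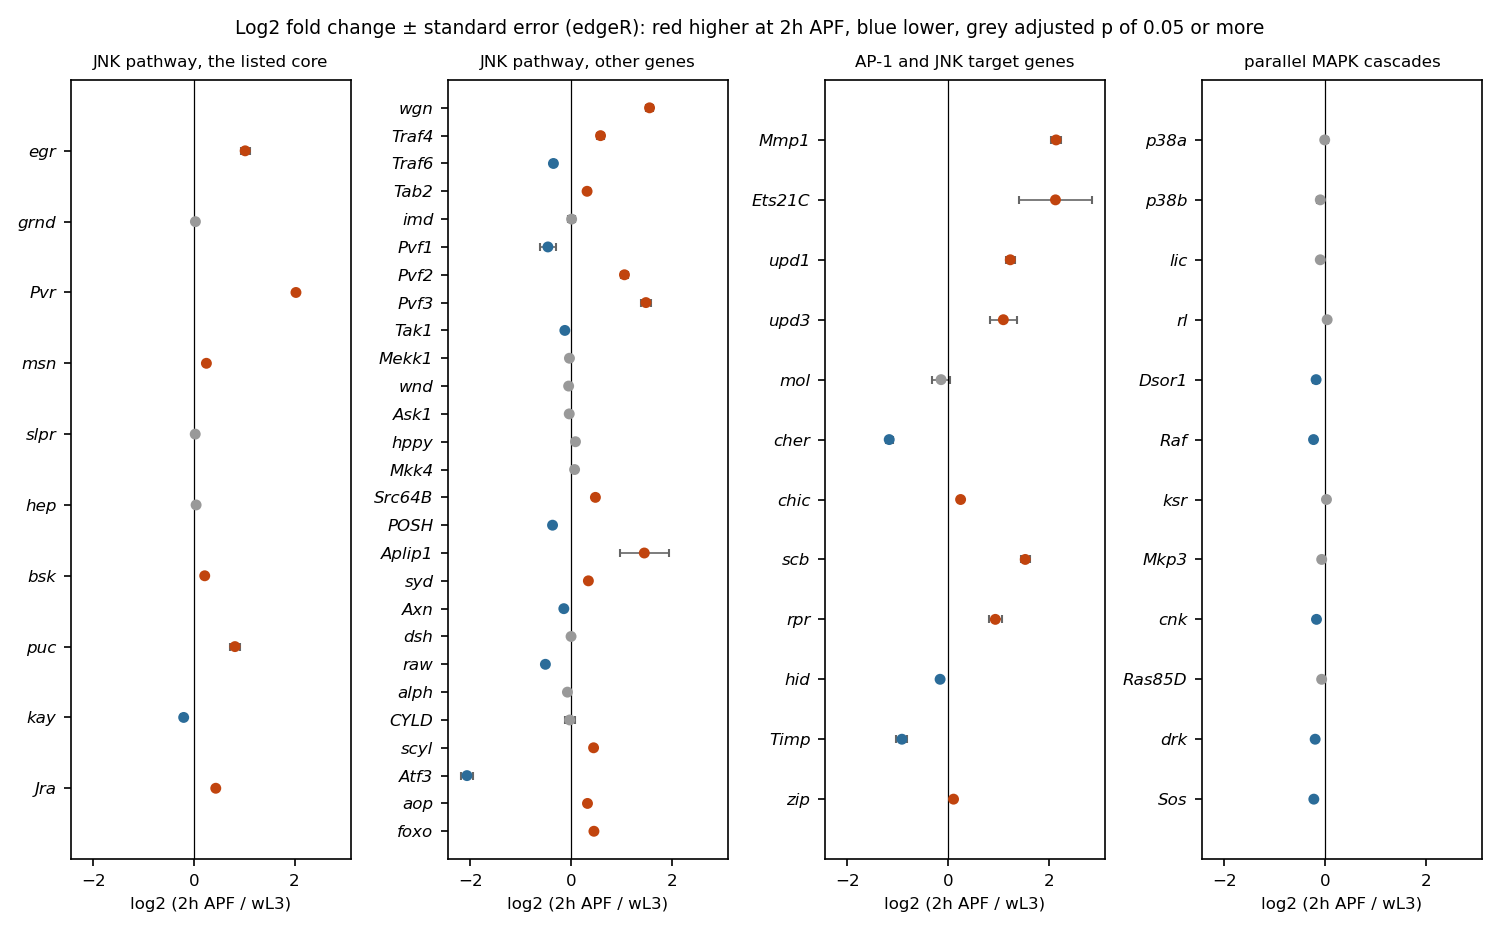
Log2 fold change of 2h APF over wL3 for the 10 genes, other JNK pathway genes, the genes listed as AP-1 or JNK targets and the parallel MAP kinase cascades, with bars of 1 SE, red for higher and blue for lower at an adjusted p below 0.05 and grey for the rest. Pvr at 2.03, Mmp1 at 2.15 and Ets21C at 2.14 lie farthest to the higher side and Atf3 at -2.07 to the lower side, and none of the parallel cascade genes reaches 1 log2 unit.

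Of 35 other pathway genes listed, 33 had counts and 32 were tested. At 2h APF 15 were higher and 7 lower, and 10 did not pass the test, and their median log2 fold change was 0.07, against -0.04 over all genes. The 22 calls and the 23 genes without overlap of 32 stood near the shares over all genes, 67.5% called and 73.4% without overlap, and scaling by total count gave 12 lower genes in place of 7. DESeq2 gave 4, as did leaving out wL3 replicate 1. The second receptor for Eiger, wgn (Wengen), had 82.4, 94.3 and 82.4 CPM at 2h APF, against 30.5, 28.2 and 29.0 CPM at wL3. All 2h APF libraries were far above wL3 (log2 fold change 1.56, SE 0.0649, adjusted p = 2.56e-06). Of the 5 receptor and adaptor genes 3 were higher and 1 was lower, the adaptor gene imd being the one that did not pass the test.

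All 3 ligand genes of Pvr were called, with mixed directions. This count and those of the other small groups below have to be read against the 67.5% of all genes that were called. Pvf3 had 15.2, 14.1 and 14.4 CPM at 2h APF, against 4.85, 5.10 and 5.61 CPM at wL3 (log2 fold change 1.49, adjusted p = 1.21e-05). Pvf2 had 59.2, 58.5 and 61.0 CPM at 2h APF, against 31.3, 25.6 and 28.5 CPM at wL3 (1.06, adjusted p = 1.56e-05). Neither overlapped between the stages. Pvf1, known for guiding migrating border cells in the ovary, had 6.79, 7.87 and 10.2 CPM at 2h APF, against 12.4, 10.5 and 11.3 CPM at wL3. It fell (-0.46, SE 0.161, adjusted p = 0.0391) by a call that was lost with DESeq2 (adjusted p = 0.0519) and without any 1 of 4 libraries, namely 2h APF replicates 1 and 2 (0.10 and 0.106) and wL3 replicates 1 and 3 (0.121 and 0.0819). Over 15 alternatives its adjusted p was 0.00727 to 0.121.

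Of 7 upstream kinases tested, Src64B was higher (0.49) and Tak1 lower (-0.12, a call lost with DESeq2 and without any 1 of 4 libraries, adjusted p up to 0.218), and Mekk1, wnd, Ask1, hppy and Mkk4 did not pass the test. Mkk4, the other MAP kinase kinase for JNK, had 0.07 (adjusted p = 0.0605) and passed with DESeq2 (0.12, adjusted p = 0.00858), and hppy passed without wL3 replicate 1 (0.17, adjusted p = 0.0202). When libraries were scaled by total count, Mekk1 (-0.14, adjusted p = 0.00726), wnd (-0.16, adjusted p = 0.00595) and Ask1 (-0.14, adjusted p = 0.0114) were lower. Of the 5 scaffold genes 2 were higher and 2 lower, among them Axn (-0.14), whose call was lost with DESeq2 and without any 1 of 3 libraries (adjusted p up to 0.179). POSH, a scaffold and ubiquitin ligase, had 55.2, 57.3 and 59.5 CPM at 2h APF, against 71.4, 75.2 and 74.8 CPM at wL3 (-0.37, adjusted p = 0.000208). Aplip1, the JIP1 scaffold, had 3.96, 4.50 and 4.01 CPM at 2h APF, against 0.512, 1.70 and 2.32 CPM at wL3. The wL3 libraries were widely spread, and the call (1.46, SE 0.493, adjusted p = 0.0337) was lost without any 1 of 4 libraries: without 2h APF replicate 1, 2 or 3 the adjusted p was 0.0719, 0.0850 and 0.0782, and without wL3 replicate 2 it was 0.0636, over a range of 0.00393 to 0.085 in 15 alternatives.

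The genes listed here as negative regulators, other than puc, gave 1 higher (scyl, 0.45) and 1 lower gene of 4 tested. The listing does not show that each of them restrains JNK signalling in leg discs. The lower one was raw, known for restraining JNK signalling in the embryonic epidermis, with 43.9, 46.0 and 43.6 CPM at 2h APF, against 64.1, 61.9 and 63.6 CPM at wL3 (-0.51, adjusted p = 2.11e-05). No libraries overlapped for raw. The related transcription factor gene Atf3 had 5.83, 6.59 and 5.62 CPM at 2h APF, against 21.2, 26.8 and 27.6 CPM at wL3. With a log2 fold change of -2.07 (SE 0.123, adjusted p = 9.36e-06) it fell the most of all pathway genes tested. The other factors tested with it, aop and foxo, were higher (0.33 and 0.46). All 9 hemocyte markers, the 5 glue markers with counts and 4 of 5 muscle markers tested were lower at 2h APF as well, and their part in the lower pathway genes was not tested.

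**Figure D5:**
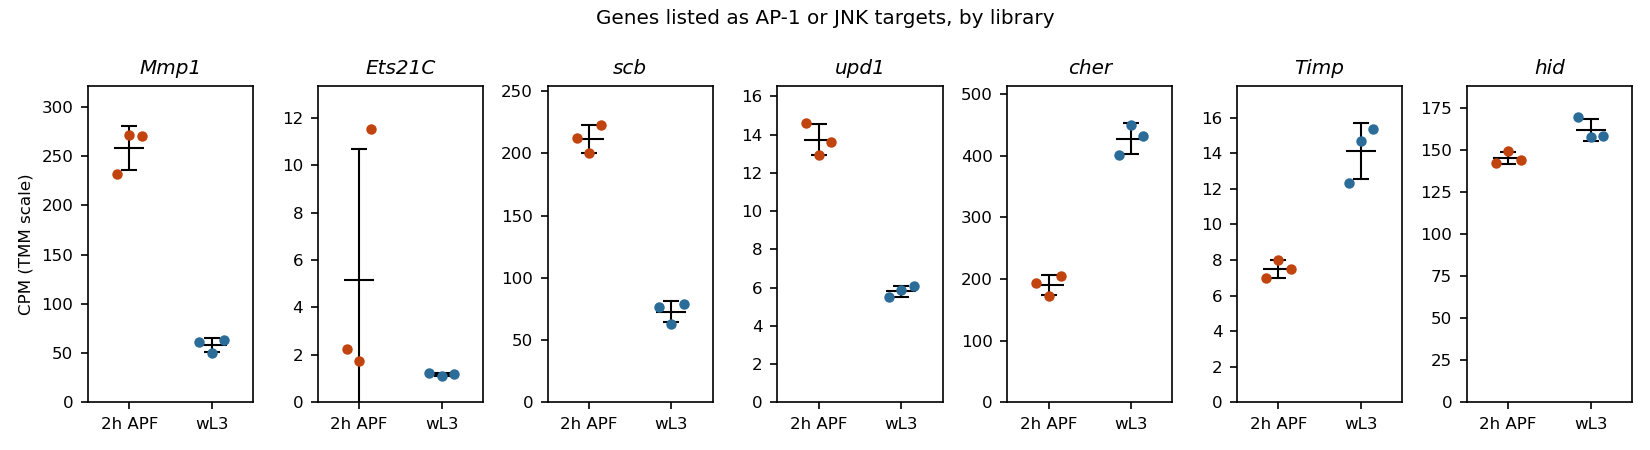
Level of 7 genes listed as AP-1 or JNK targets in CPM on the TMM scale (linear axes from 0), with 1 point per library at 2h APF and at wL3. Bars give the mean and SD of 3 libraries and the lower bar of Ets21C is cut at 0. Mmp1, scb and upd1 lie above wL3 in every 2h APF library, cher, Timp and hid below, and the Ets21C mean rests on 1 library at 11.5 CPM.

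Among genes reported as AP-1 or JNK targets in discs or in dorsal closure, Mmp1 had the largest rise at 2h APF. Of 14 listed, 13 had counts and 12 were tested, 8 were higher, 3 lower and 1 (mol) not called, 5 of the higher and 1 of the lower beyond 1 log2 unit. Their median log2 fold change was 0.60, and 11 of the 12 did not overlap. Over all genes 67.5% were called, 30.6% higher, 18.6% lay beyond 1 log2 unit and 73.4% did not overlap. Without wL3 replicate 2, 6 of the listed genes were higher in place of 8. Mmp1, a matrix metalloproteinase that opens the basement membrane, had 232, 271 and 270 CPM at 2h APF, against 61.3, 49.8 and 63.1 CPM at wL3. It rose to 4.44 times its wL3 level (log2 fold change 2.15, SE 0.105, adjusted p = 4.3e-06). Its inhibitor gene Timp moved the other way, with 7.01, 7.99 and 7.48 CPM at 2h APF, against 12.3, 14.7 and 15.4 CPM at wL3 (-0.91, adjusted p = 0.000283). The integrin gene scb had 212, 200 and 223 CPM at 2h APF, against 76.8, 63.0 and 79.1 CPM at wL3 (1.54, adjusted p = 8.83e-06). The cytokine gene upd1 had 14.6, 13.0 and 13.6 CPM at 2h APF, against 5.51, 5.86 and 6.06 CPM at wL3 (1.24, adjusted p = 2.58e-05). None of these overlapped between the stages.

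Lower at 2h APF were also cher, the filamin gene, with 194, 173 and 205 CPM at 2h APF, against 401, 450 and 432 CPM at wL3 (-1.17, adjusted p = 9.96e-06), and the cell death gene hid, with 143, 150 and 144 CPM at 2h APF, against 170, 158 and 159 CPM at wL3 (-0.16, adjusted p = 0.0114). The call of hid was lost with DESeq2 and without wL3 replicate 1, with an adjusted p of up to 0.0710. The other cell death gene of the list, rpr, was higher (0.94). Ets21C, an ETS factor that acts with AP-1, had 2.26, 1.75 and 11.5 CPM at 2h APF, against 1.23, 1.12 and 1.18 CPM at wL3. The change (log2 fold change 2.14, SE 0.731, adjusted p = 0.0353) came largely from 2h APF replicate 3, without which it was 0.76 (adjusted p = 0.0685), and the call was also lost without wL3 replicate 1, 2 or 3 (adjusted p = 0.0688, 0.0890 and 0.0912). Over 15 alternatives its adjusted p was 0.00213 to 0.115. In the same library Ilp8, a relaxin-like hormone gene of damaged discs that was too low to be tested, had 28 counts, against 1 and 0 counts in the other 2h APF libraries and 0, 1 and 2 counts at wL3. For puc this library, at 77.6 CPM, was close to 2h APF replicate 2, at 75.6 CPM. Why Ets21C and Ilp8 were high in this library was not tested. The summed tracheal, myoblast and wing and eye disc markers were higher and the hemocyte markers lower at 2h APF, and their part in the changes of the listed target genes was not tested.

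Of 13 genes listed for the parallel MAP kinase cascades, 12 were tested, 0 were higher, 5 lower and 7 not called, none beyond 1 log2 unit, and their median log2 fold change was -0.09. Over all genes 30.6% were higher and 36.9% lower, and scaling by total count gave 9 lower genes of the list in place of 5, and leaving out 2h APF replicate 3 or wL3 replicate 2 gave 3. In edgeR 0 of the 12 were higher at an unadjusted p below 0.05 as well, and 0 by DESeq2 or limma. The p38 cascade had 0 of 3 genes called in edgeR with TMM scaling, 0 at an unadjusted p below 0.05, and 0 by DESeq2 or limma, but 2 were lower in edgeR when libraries were scaled by total count, p38b (-0.20, adjusted p = 0.0174) and lic (-0.20, adjusted p = 0.00627). In the ERK cascade 5 of 9 were lower, Raf (the MAP kinase kinase kinase, -0.23), Sos (an exchange factor for Ras, -0.22), drk (an adaptor to receptor tyrosine kinases, -0.19), Dsor1 (the MAP kinase kinase, -0.18) and cnk (a scaffold, -0.17). The calls of Dsor1 and cnk were each lost without any 1 of 4 libraries (adjusted p up to 0.160 for Dsor1 and 0.0547 for cnk), and that of Dsor1 also with DESeq2 (adjusted p = 0.153). The kinase gene rl, the ERK of the fly, did not pass the test (0.04, adjusted p = 0.367).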

How the data were processed

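Leg discs were profiled by polyA RNA-seq with a strand-specific kit. The authors assigned reads with kallisto to a reference combining Ensembl 74 with additional lincRNAs (the version of kallisto and its strand setting are not given in the sources used here) and deposited, for each library, an estimated count and a TPM value per target, without scaling between libraries. Their notes also name dm3 and Sleuth. Sleuth needs resampled counts and was not used here.

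Of 42506 targets, 27011 matched a transcript of the BDGP6.54 annotation by FlyBase identifier, giving 15259 genes. Coordinates and codon counts come from that annotation, in which the lengths of some targets differ from those in the reference used for the reads. In 65 groups, 151 genes held identical values at 5 or more counts and were counted once per group, leaving 15173. Estimated counts were summed per gene, rounded, scaled by TMM and filtered with filterByExpr (8935 genes), and the stages were compared with the quasi-likelihood test of edgeR 4.0.16 (R 4.3.3), Benjamini-Hochberg adjusted over all genes, without a replicate block. Targets were fitted likewise. Between 96.4 and 96.6% of each library's count was matched, and the 10 genes had 560 to 15713 counts per library, so their precision is set mainly by the spread between libraries. The script was tested on simulated data.

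Alternatives were DESeq2 1.42.0, limma 3.58.1 on log2(TPM + 0.5) or log2(TPM + 0.1), RLE scaling or total library size, no low-count filter or at least 10 counts in every library, unmatched targets kept, a replicate block, a fold threshold of 1 log2 unit, and each library left out. All 10 genes are described. From each other list, up to 4 genes per direction with the largest change among those called without overlap are given with values, and transcripts are described from 10% of a gene's TPM in any library. Other listed genes, and the called transcripts egr-RB, hep-RE and kay-RF and the pair Pvr-RJ and Pvr-RM, were named after their values were seen where outside this rule. The genes and lists were chosen with earlier results of these data known. The listed genes Atf-2, Src42A, upd2 and Sgs4 were not analysed here, and rib and p38c were too low to be tested. A role group of the other pathway genes is counted in the totals but not reported here.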

Additional observations from a re-analysis of the deposited data

How the results depend on the processing

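All 7 calls among the 10 genes kept their direction and their side of the threshold in 15 alternatives, except bsk under total library size, where 6 of the 10 genes were called. That scaling lowered the log2 fold changes of all genes by a median of 0.11, and hep (-0.068), slpr (-0.0845) and grnd (-0.081) changed sign under it without being called. Over the alternatives the log2 fold change ran from 1.92 to 2.07 for Pvr, 0.91 to 1.11 for egr, 0.70 to 0.91 for puc and -0.31 to -0.16 for kay. Total library size gave 12 lower genes among the other pathway genes and 9 in the parallel cascades, DESeq2 and RLE scaling 4 and 4 lower other pathway genes. With a fold change beyond 1 log2 unit as well, 1664 genes were called (870 higher and 794 lower), 2 of the 10 genes (2 higher and 0 lower), 5 other pathway genes (4 higher and 1 lower), 6 target genes (5 higher and 1 lower) and 0 parallel cascade genes (0 lower). Leaving out each library gave 5392 to 5911 genes called, 7 of the 10 each time, 4 to 6 lower other pathway genes, 3 to 4 parallel cascade genes (3 to 4 lower) and 2 to 5 lower transcripts of the 10 genes. Deviations from the stage means of same-numbered libraries correlated at -0.01, 0.15 and -0.26, and those of differently numbered libraries at -0.24 to 0.29. Replicate numbers thus showed no sign of pairing the libraries, although 3 libraries per stage cannot exclude it. With a replicate block 5660 genes were called (2598 higher and 3062 lower), the same number of the 10 genes, 7, and 2 lower transcripts of these genes. With 3 libraries against 3, ratios and shares could not reach a p under 0.1. Why calls near the threshold changed between these settings was not tested.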
